A study of Sus scrofa with 48 samples.

Results

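Proteasome genes were followed in the liver of 48 pigs. The genes were found by name, as array probes whose gene symbol begins with PSM, a letter from A to G and a digit, with PSMB8 and PSMB9 left out and described with the wider pathway. The rule gave 44 gene names and 109 probes, of 10922 listed gene names and 60305 probes on the array, and 1 probe stood for each gene, the one with the highest mean signal. Of the 44 names, PSMC3IP belongs to a meiotic recombination factor that only shares the prefix, and PSMD5 was too dim to test, which left 42 proteasome genes with a tested probe. No probe carried the names PSMA1, PSMA7 or PSMA8.

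The animals were castrated male Large White pigs. They came from lines bred in opposite directions for 8 generations on residual feed intake (RFI), the feed an animal eats above or below what its growth and body composition predict. Low RFI pigs (RFIneg) eat less than predicted and high RFI pigs (RFIpl) eat more. From 74 days of age, pigs of each line received either a diet rich in fat and fiber (HF) or a diet low in both (LF), which gave 4 groups of 12 pigs (HF_RFIneg, HF_RFIpl, LF_RFIneg and LF_RFIpl). All were housed individually, fed freely and slaughtered at about 19 weeks of age, 2 hours after the last meal, and no group was unselected or on a standard diet. Each RFI level was represented by a single line, so that selection for RFI and any other genetic difference between the lines cannot be told apart.

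The proteasome is the protease that degrades proteins tagged with ubiquitin. Its 20S core is a barrel of stacked rings, in which alpha subunits (PSMA genes) form the gate and beta subunits (PSMB genes) carry the catalytic sites. The 19S cap recognizes and unfolds substrates with a ring of ATPases (PSMC genes) and a set of non-ATPase subunits (PSMD genes). Under interferon-gamma, the inducible beta subunits PSMB8, PSMB9 and PSMB10 replace their constitutive counterparts to form the immunoproteasome, and the activator PSME1 with PSME2 can take the place of the cap. In the liver the system turns over regulatory, damaged and misfolded proteins and supplies peptides for antigen presentation.

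Each probe is a 60-base oligonucleotide, and the few probes on which the results below turn are shown as the array files list them, in lower case and read from 5′ to 3′. The first is the PSMB10 probe with the highest signal, which runs over the stop codon, and the second a PSMB10 probe that shares no stretch with the other 3.
PSMB10, A_72_P644145: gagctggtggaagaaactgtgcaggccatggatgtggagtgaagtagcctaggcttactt
PSMB10, A_72_P024281: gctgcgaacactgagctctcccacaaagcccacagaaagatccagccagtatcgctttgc
The next pair reads nearly the same PSMB2 sequence, overlapping by 56 bases with 1 base different, written as a capital (C12A, counted from the 5′ end of the named probe), and only the first carries the gene name.
PSMB2, A_72_P293454: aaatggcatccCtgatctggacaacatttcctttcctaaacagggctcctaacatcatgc
PSMB2, probe without a gene name: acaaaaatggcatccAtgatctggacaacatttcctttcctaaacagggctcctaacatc
The last ones are the coding probes of PSMA4 and PSMD1 that differ in response from probes further along the same transcript, and the only PSMA3 probe.
PSMA4, A_72_P599663: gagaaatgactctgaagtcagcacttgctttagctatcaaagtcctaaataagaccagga
PSMD1, A_72_P073866: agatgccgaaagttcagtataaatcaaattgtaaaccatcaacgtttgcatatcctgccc
PSMA3, O10090: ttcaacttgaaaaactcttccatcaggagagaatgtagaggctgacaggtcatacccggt

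Between 65.8 and 77.2% of the probes were well above background, the median intensity lay between 53 and 126.4, and no spot was saturated. Each array correlated with the mean of the other arrays of its group at r between 0.9878 and 0.9936. A level is given below as log2 intensity with the median of the array set to 0, and an effect as a log2 fold change, low minus high RFI for line and HF minus LF for diet. A probe was called when limma gave P under 0.01 together with a fold change over 1.1. The Benjamini-Hochberg adjusted P over all 45236 tested probes is given beside it. Levels of different probes depend on the probe and are not compared. The tissue was whole liver, in which fewer cells of a type and less RNA per cell cannot be told apart. The hepatocyte markers tested, albumin and APOB among 7, were above background on all 48 arrays.

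Proteasome genes were called for line at about the share of all tested probes. PSMB10 and PSMB2 were lower and PSMC3IP was higher in low RFI pigs, which is 3 of the 43 tested names or 6.98%, against 6.91% of all tested probes (3.42% higher and 3.49% lower). Without PSMC3IP, 2 of 42 genes were called. At an adjusted P under 0.05, 2 names remained (PSMB10 and PSMC3IP), against 3.93% of all tested probes. When a gene counted with any of its probes, PSMA4 and PSMD1 were added to make 5 of 43 names, against 9.4% of 9401 named genes under the same rule, and 4 at an adjusted P under 0.05, against 5.51%. The median line effect over the 43 names was -0.018, with 14 above and 29 below 0, compared with 0.005 over all tested probes. For 36 of the 43 names the 95% confidence interval of the line effect lay within 1.2-fold in either direction, which held for 55.5% of all tested probes and for 62.3% of the named genes. The plot of the effects by gene shows PSMB10 and PSMC3IP apart from a narrow column of values.

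**Figure D1:**
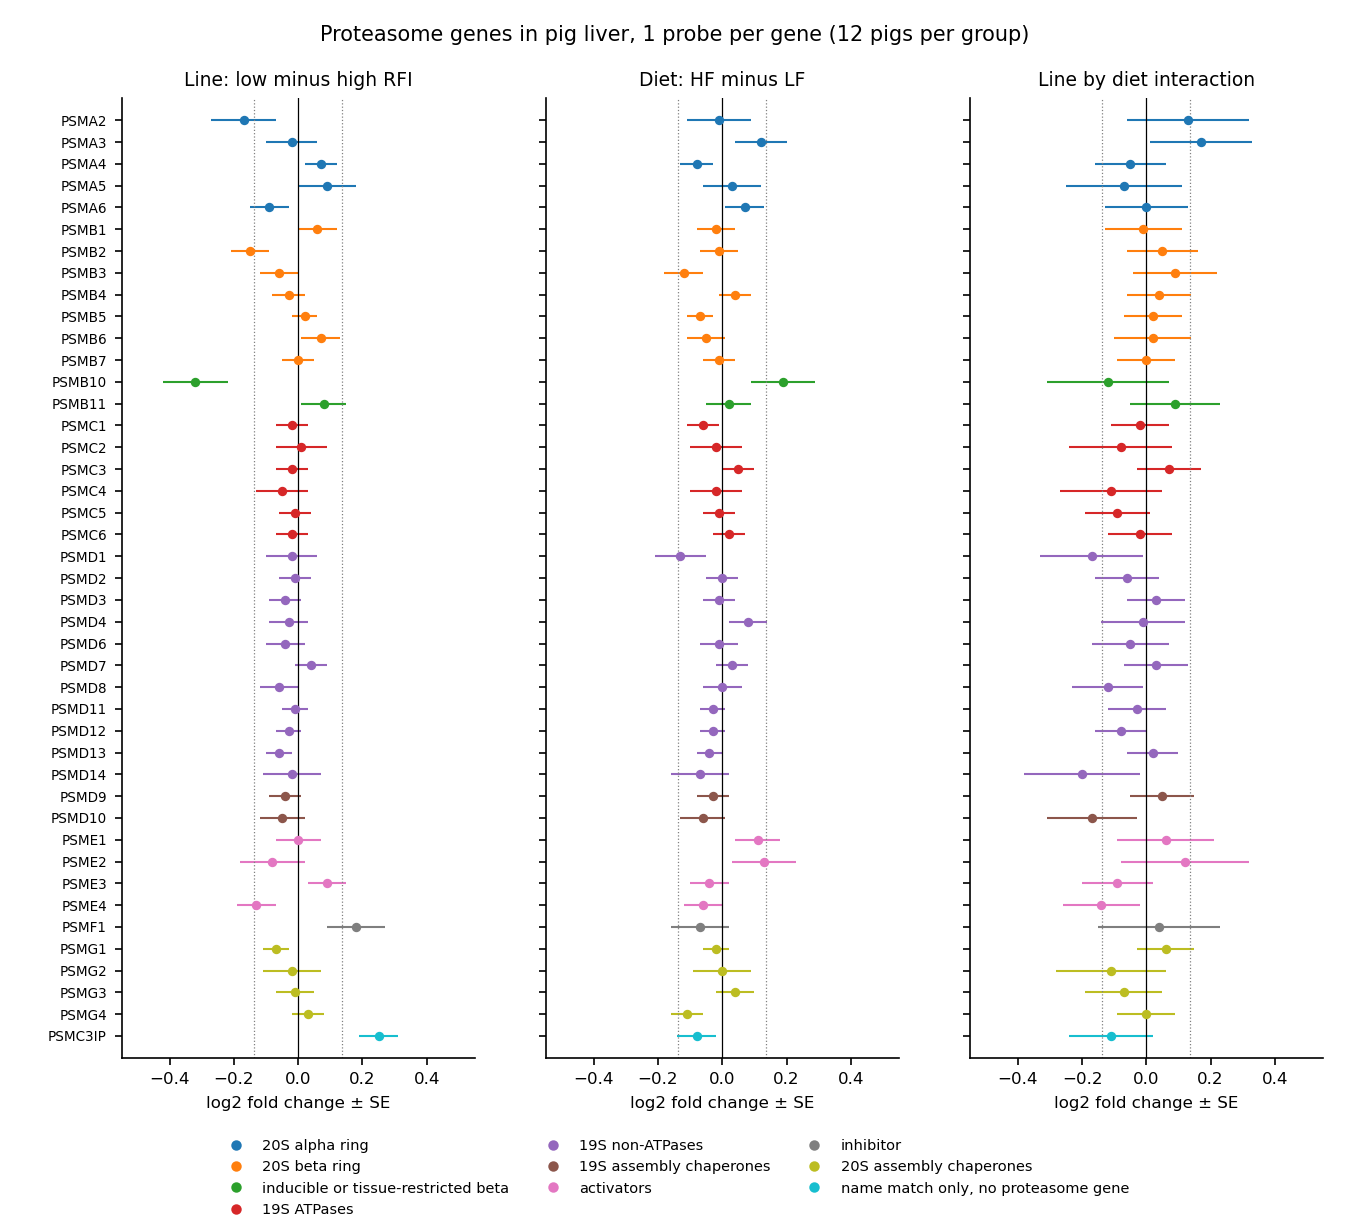
Line effect, diet effect and interaction (log2 fold change ± SE, horizontal axes) for the 43 tested names, with 1 probe for each gene, coloured by role. Dotted lines mark a fold change of 1.1. PSMB10 at -0.32 and PSMC3IP at 0.25 are the ends of the line panel, while most other values lie close to 0.

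The alpha ring was represented by 5 genes and none was called for line, with effects from -0.17 (PSMA2) to 0.09 (PSMA5). These 5 include PSMA3, for which the strand of the probe was not settled. PSMA6, the member with the highest signal, ranged from 5.11 to 5.62 around a median of 5.46 in HF low RFI pigs and from 5.16 to 5.97 around 5.43 in HF high RFI pigs. On the LF diet its levels ran from 5.13 to 5.57 (median 5.31) in the low and from 5.13 to 5.88 (median 5.36) in the high RFI line. The groups overlapped almost completely, and the line effect of PSMA6 was -0.09 ± 0.06 (SE, P = 0.161, limma). Its other 4 probes gave between -0.11 and -0.06.

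PSMA3, another alpha subunit, had a single probe that was dim but above background on all 48 arrays. As listed, this probe has 0 reading frames without a stop codon, and its reverse complement has 2. Its strand was not settled, and whether it reads PSMA3 RNA was not tested. The values below are those of the probe and are not read as levels of PSMA3 RNA. Levels were between -2.84 and -1.94 (median -2.44) in HF low RFI, -3.30 and -1.93 (median -2.49) in HF high RFI, -3.04 and -2.21 (median -2.63) in LF low RFI and -3.18 and -2.18 (median -2.43) in LF high RFI pigs. No group stood apart. The line effect was -0.02 ± 0.08 (SE, limma P = 0.855), the diet effect 0.12 ± 0.08 (P = 0.165) and the interaction 0.17 ± 0.16 (P = 0.311). The paper lists PSMA3 among the genes that differed between lines in every tissue it examined, liver included, whereas this probe was not called.

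PSMA4, an alpha subunit that takes part in the gate of the core, depended on which probe was read. The probe with the highest signal, which starts at base 656 of the transcript and is printed above, gave medians of 4.21, 4.21, 4.35 and 4.34 in HF low, HF high, LF low and LF high RFI pigs and a line effect of 0.07 ± 0.05 (SE, limma P = 0.231). Its neighbour at base 718 gave 0.06 (P = 0.334). The remaining PSMA4 probe, which starts at base 1192, was lower in low RFI pigs by 0.28 on the log2 scale (SE 0.06, 1.22-fold, P = 7.12e-06, adjusted P = 9.59e-04). Its levels ranged from 3.54 to 3.96 (median 3.72) in HF low RFI and from 3.69 to 4.39 (median 4.05) in HF high RFI pigs, and from 3.55 to 4.15 (median 3.72) and 3.70 to 4.39 (median 4.07) in the same lines on LF. The lines overlapped, but 22 of 24 low RFI pigs were below the high RFI median, and the line effect was called on both diets (-0.31 on HF, P = 3.73e-04, adjusted P = 0.0504, and -0.26 on LF, P = 0.00181, adjusted P = 0.113).

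The 3 PSMA4 probes did not vary together either. After the group means were removed, the probes at bases 656 and 718 correlated across the 48 pigs at r = 0.94, whereas the probe at base 1192 correlated with them at 0.03 and -0.06. The line effects of the probes at bases 1192 and 656 differed by -0.35 (permutation test over pigs within diet, 100000 resamples, two-sided, P = 3e-05, adjusted 4.5e-05 over 3 such comparisons, which were chosen after the values were seen).

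The 7 constitutive beta subunits had line effects from -0.15 to 0.07, and 1 of them, PSMB2, was called. PSMB4, the beta subunit with the highest signal, had group medians between 6.69 and 6.79 and a line effect of -0.03 ± 0.05 (SE, limma P = 0.536). Its 12 probes all lay between -0.11 and -0.03, and 6 of them overlap one another.

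PSMB2, a non-catalytic beta subunit, was 1.11-fold lower in low RFI pigs (log2 fold change -0.15 ± 0.06 SE, P = 0.00783, adjusted P = 0.121). Levels ran from 5.16 to 5.68 (median 5.43) in HF low RFI and from 5.28 to 5.98 (median 5.51) in HF high RFI pigs. On LF they ran from 5.20 to 5.59 (median 5.41) in the low and from 5.38 to 6.19 (median 5.51) in the high RFI line. The lines overlapped, with 15 of 24 low RFI pigs below the high RFI median, and the call was lost under 7 of the alternative settings. The unnamed probe that differs from it at C12A gave -0.10 ± 0.05 (P = 0.0615), and the line effects of this pair differed by -0.06 (permutation P = 0.0999). Another, dim probe of PSMB2 gave 0.04.

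PSMB10, the inducible beta subunit that takes the place of PSMB7 in the immunoproteasome, was lower in low RFI pigs on every probe that reads it. With the first probe shown above, levels ranged from 4.09 to 5.21 (median 4.76) in HF low RFI pigs and from 4.80 to 5.47 (median 5.15) in HF high RFI pigs. On the LF diet the range was 4.12 to 5.24 (median 4.49) in the low and 4.26 to 5.33 (median 4.90) in the high RFI line. Of the 24 low RFI pigs, 22 were below the high RFI median, and 9 high RFI pigs were above every low RFI pig. The line effect was -0.32 ± 0.10 (SE, 95% confidence interval -0.51 to -0.13), a 1.25-fold lower level (limma P = 0.00157, adjusted P = 0.0428). The adjusted P was above 0.05 with quantile normalization, normexp background correction, the median signal, the deposited values or no filter on dim probes, and in each scan day alone. PSMB7, the constitutive counterpart, had a line effect of 0.00 ± 0.05 (P = 0.963).

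The other named PSMB10 probes gave -0.36 (P = 4.85e-04, adjusted P = 0.0191; the second sequence shown above), -0.34 (adjusted P = 0.0390) and -0.33 (adjusted P = 0.0430), the last 2 sharing 50 bases. Another pair of probes, which carry no gene name but overlap the PSMB10 probes, gave -0.36 and -0.34 (adjusted P = 0.0417 and 0.0409). The named probe at -0.34 has the same sequence as 1 overlapping probe without the gene name, so these values are not all separate readings. Within diets, the line effect of PSMB10 was -0.38 on HF (P = 0.00735, adjusted P = 0.253, called, against 3.41% of all tested probes) and -0.26 on LF (P = 0.0576), and the interaction was -0.12 ± 0.19 (P = 0.548). Diet itself gave 0.19 ± 0.10 (P = 0.0551), higher on HF and not called. Among the 24 arrays of each scan day, the line effect was -0.39 (P = 0.0075) on the first day and -0.25 (P = 0.0817) on the second.

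**Figure D2:**
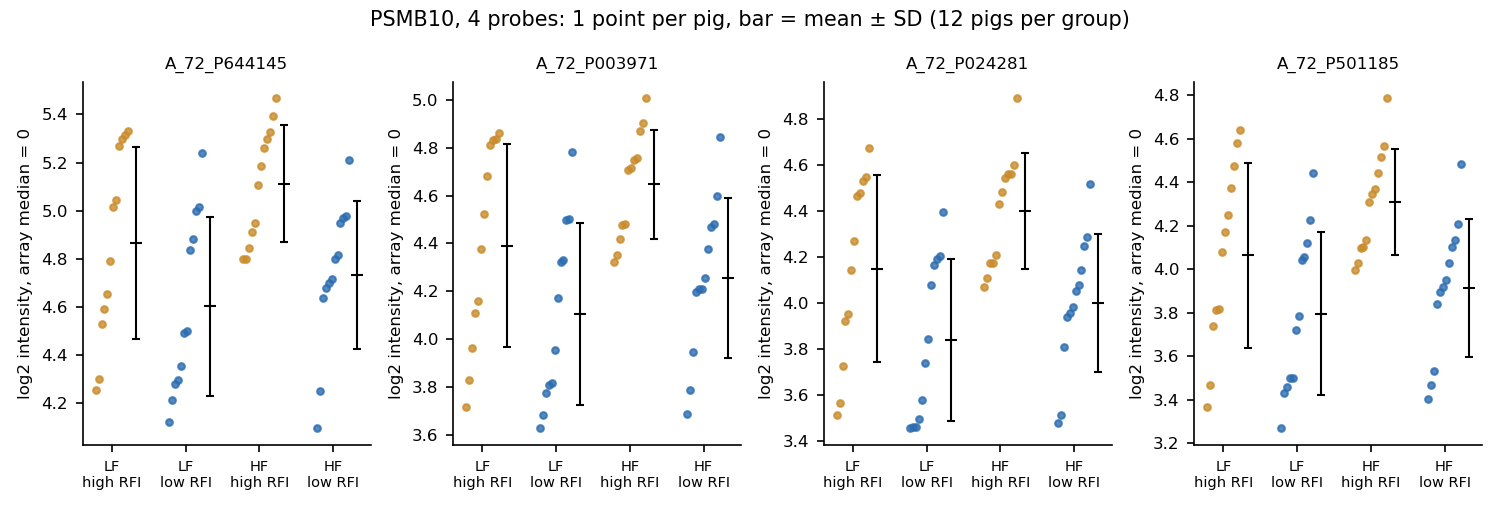
Levels of the 4 named PSMB10 probes (log2 intensity, array median = 0, vertical axes), with 1 point per pig in the 4 groups and bars for the mean ± SD of 12 pigs. On each diet the low RFI pigs (blue) are lower on average than the high RFI pigs (orange) with every probe, and the groups overlap.

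Most markers of immune cells, and all 3 of the bile duct, lay on the same side of 0 as PSMB10 for line. Of the 8 macrophage markers tested, 7 were below 0 with a median of -0.19 and none was called, against 6.91% of all tested probes. Their summed level ranged from 7.66 to 8.47 in HF low, 7.67 to 8.33 in HF high, 7.37 to 8.08 in LF low and 7.82 to 8.59 in LF high RFI pigs. For T and NK cells, 6 of 9 tested markers were below 0 with a median of -0.12 and none was called, PRF1 was not tested because it was dim, and the ranges were 3.87 to 5.07, 4.07 to 4.91, 3.86 to 5.45 and 3.98 to 5.13 in the same order. The 3 tested B cell markers were all below 0, with a median of -0.18. The bile duct markers had a median of -0.24, and 6 of 7 hepatocyte markers were above 0 with a median of 0.04. KRT7, 1 of 3 bile duct markers, was called lower (-0.35, limma P = 0.00646, adjusted P = 0.108), against 3.49% of all tested probes. APOA1, 1 of 7 hepatocyte markers, was called higher (0.15, limma P = 0.00777, adjusted P = 0.121), against 3.42% of all tested probes. The bile duct list summed to between 0.79 and 2.28 in HF low, 0.58 and 2.55 in HF high, 0.80 and 1.65 in LF low and 0.53 and 1.83 in LF high RFI pigs. The hepatocyte list summed to between 12.82 and 13.34, 12.64 and 13.23, 12.99 and 13.33, and 12.96 and 13.26 in the same order. All 4 endothelial and all 4 stellate cell and fibroblast markers were above 0, with medians of 0.06 and 0.08. After the group means were removed, r with PSMB10 ran from -0.14 to 0.34 for macrophage and from -0.10 to 0.42 for T and NK cell markers. For B cell markers it ran from -0.31 to -0.17, for bile duct from -0.03 to 0.09 and for hepatocyte from -0.47 to 0.13. The part of these cells in the PSMB10 difference was not tested.

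The 19S cap differed little between lines. The 6 ATPases lay between -0.05 and 0.01, and PSMC1, the ATPase with the highest signal, had medians of 6.31, 6.33, 6.36 and 6.37 in HF low, HF high, LF low and LF high RFI pigs (line effect -0.02 ± 0.05 SE, limma P = 0.608). The 11 non-ATPase subunits lay between -0.06 and 0.04, with 10 of 11 below 0 and none called. PSMD13, a structural subunit of the lid and the one with the highest signal, had medians of 6.33, 6.39, 6.32 and 6.44 in the same order and a line effect of -0.06 ± 0.04 (P = 0.149). Its second probe, above background on 27 of 48 arrays, gave -0.40 ± 0.16 (P = 0.0150, adjusted P = 0.178).

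PSMD1, the large scaffold subunit of the cap base, also differed between lines on only some of its probes. The paper lists it, too, as differing between lines in every tissue examined, and it kept a gene when any of its probes passed. Its probe with the highest signal, starting at base 3042, had medians of 5.56 in HF low, 5.68 in HF high, 5.82 in LF low and 5.67 in LF high RFI pigs, and gave a line effect of -0.02 ± 0.08 (SE, limma P = 0.850). The probes at bases 637, 1275 and 2538 gave 0.10, 0.01 and 0.05, and none of them was called. The last of these is the coding probe shown above.

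The PSMD1 probe at base 3184, however, was 1.88-fold higher in low RFI pigs (log2 fold change 0.91 ± 0.19 SE, P = 1.65e-05, adjusted P = 0.00165). Its levels ranged from 2.36 to 3.25 (median 2.96) in HF low RFI and from 2.38 to 3.82 (median 3.12) in LF low RFI pigs. In high RFI pigs they ran from 0.05 to 3.15 (median 2.31) on HF and from 0.42 to 3.47 (median 2.16) on LF. All 24 low RFI pigs were above the high RFI median and 17 of 24 high RFI pigs were below the lowest low RFI pig, while the rest of the high RFI pigs lay within the low RFI range. The line effect was 0.74 on HF (P = 0.00784, adjusted P = 0.262) and 1.07 on LF (P = 2.14e-04, adjusted P = 0.0339), 0.77 among the arrays of the first scan day and 1.04 among those of the second.

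The low RFI pigs were uniform and the high RFI pigs spread out when the PSMD1 probe at base 3184 was set against the one at base 3042 within each pig. The difference between the probes averaged -2.68 ± 0.11 in low RFI pigs and -3.61 ± 0.85 in high RFI pigs (mean ± SD of 24 each). In the latter it ranged from -5.22 to -2.63 and fell below the whole low RFI range in 18 of 24 pigs. The line effects of these probes differed by 0.92 (permutation test within diet, 100000 resamples, two-sided, P = 1e-05, the smallest that this number of resamples can give, adjusted 3e-05 over 3 comparisons). The pair was chosen after the values of the same pigs were seen, so a small P was partly fixed by the choice. Because the spread also differed between lines, this P does not measure a difference in means alone. Within lines, the probes correlated across pigs at r = 0.95 in the low and 0.24 in the high RFI line. A further probe that shares 25 bases with the probe at base 3184 (AAATCTCCAGATGGACCAGGACTTG, in capitals throughout as the shared stretch) gave 0.25 (P = 0.00232, adjusted P = 0.0560, called), and the probe at base 3223, which shares 21 bases with it, gave 0.18 (P = 0.0450). None of the probes upstream was called.

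**Figure D3:**
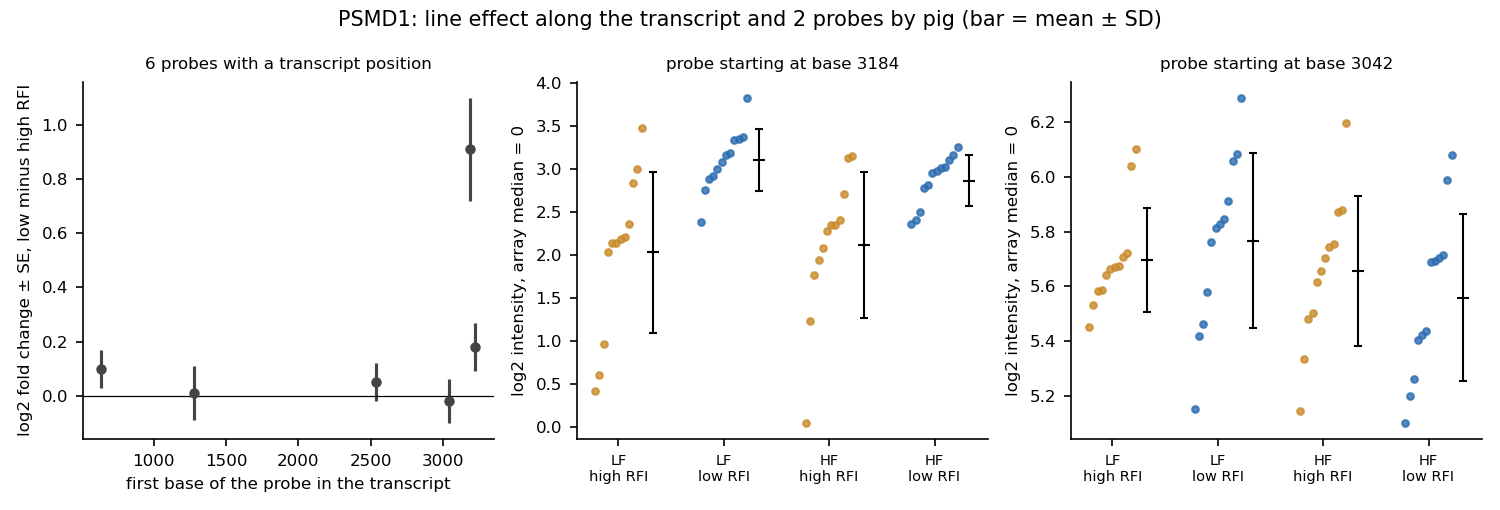
PSMD1. Left, line effect (log2 fold change ± SE) of the 6 probes with a transcript position against the first base of the probe; middle and right, levels (log2 intensity, array median = 0) by pig for the probes at bases 3184 and 3042, with bars for the mean ± SD of 12 pigs. The probe at base 3184 separates most high RFI pigs (orange) downward, with levels down to 0.05, and the probe at base 3042 does not.

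Assembly chaperones and regulators were not called for line. PSMD9, a chaperone of the cap, gave -0.04 ± 0.05 (SE, limma P = 0.414) with medians from 3.77 to 3.88 over the groups. PSMD5, another cap chaperone, was well above background on 4 of 48 arrays, 1 in each group, and has no tested value. Of the 4 chaperones of the 20S core, PSMG4 gave 0.03 ± 0.05 (P = 0.588), and the others lay between -0.07 and -0.01. PSMF1, an inhibitor of the core, was dim (above background on 43 arrays) and gave 0.18 ± 0.09 (P = 0.0580).

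Among the activators, the interferon-inducible PSME1 and PSME2 gave 0.00 ± 0.07 (SE, limma P = 0.971) and -0.08 ± 0.10 (P = 0.441) for line. PSME2 had medians of 6.51 in HF low, 6.33 in HF high, 6.17 in LF low and 6.24 in LF high RFI pigs, and the groups overlapped. The activator PSME4, named here because it was the only other gene with an unadjusted P under 0.05, gave -0.13 ± 0.06 (P = 0.0421, adjusted P = 0.313).

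PSMC3IP, the recombination factor, was 1.19-fold higher in low RFI pigs (log2 fold change 0.25 ± 0.06 SE, limma P = 2.05e-04, adjusted P = 0.0105). Its levels ran from 1.70 to 2.63 (median 2.35) in HF low RFI and from 1.67 to 2.28 (median 2.1) in HF high RFI pigs, and from 2.03 to 2.58 (median 2.45) and 1.82 to 2.45 (median 2.05) in the same lines on LF. Of 24 low RFI pigs, 19 were above the high RFI median, and 10 were above every high RFI pig. The effect was called within LF (0.31, P = 0.00105, adjusted P = 0.0888, against 3.84% of all tested probes) and not within HF (0.20, P = 0.0326), and the interaction was -0.11 (P = 0.366).

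**Figure D4:**
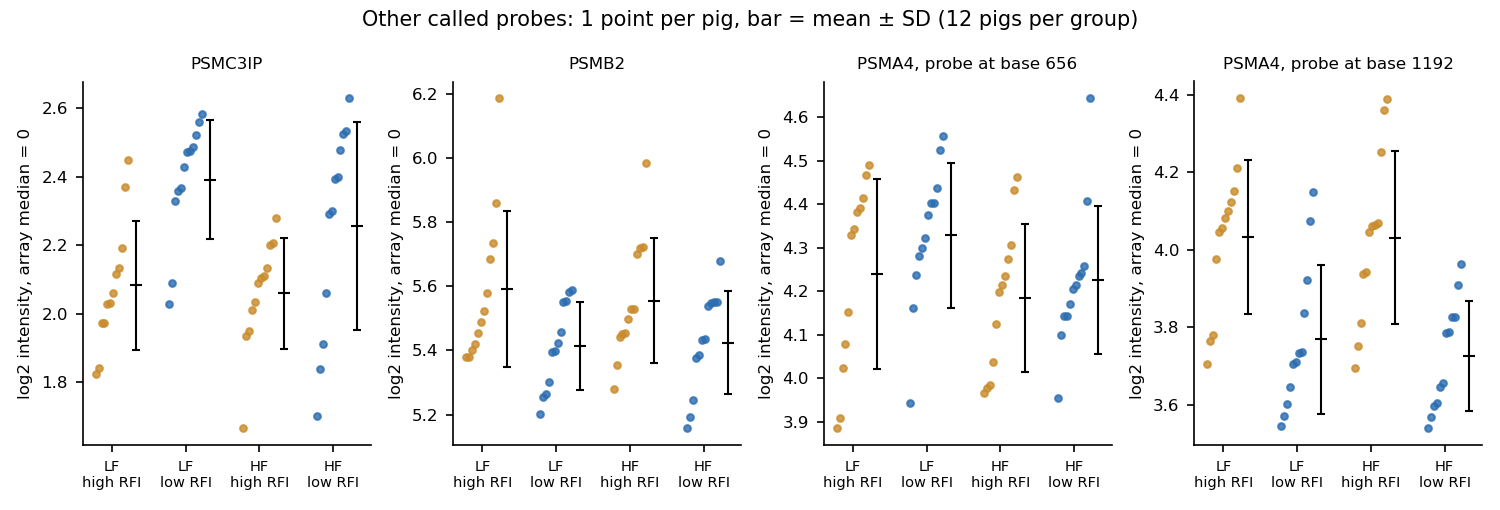
Levels (log2 intensity, array median = 0) by pig in the 4 groups for PSMC3IP, PSMB2 and the PSMA4 probes at bases 656 and 1192, with bars for the mean ± SD of 12 pigs. Low RFI pigs (blue) are higher for PSMC3IP and lower for PSMB2 and for PSMA4 at base 1192, with overlap in each panel, and the PSMA4 probe at base 656 shows no such shift.

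Diet called no proteasome gene. None of the 43 names passed on any probe, against 4.61% of all tested probes, and none did at an adjusted P under 0.05 (0.455% of all tested probes, limma). At an unadjusted P under 0.05 there was 1, PSMG4, a chaperone of the alpha ring, with -0.11 ± 0.05 (SE, P = 0.0298, adjusted P = 0.290). Its medians were 4.52 in both HF groups and 4.64 and 4.63 in the LF groups. The median diet effect was -0.014 over the 43 names and -0.014 over all tested probes. For 39 of the 43 names the 95% confidence interval lay within 1.2-fold, which held for 53.9% of all tested probes. PSMB10 was the name with the largest diet effect in size (0.19). PSME2 gave 0.13 ± 0.10 (P = 0.198) and PSMD1 -0.13 ± 0.08 (P = 0.122).

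The interaction of line and diet called none of the 43 names (0.376% of all tested probes) and none had an unadjusted P under 0.05 in limma. Its confidence intervals were wider, within 1.2-fold for 16 of 43 names and 14.5% of all tested probes. Diet called none of them within the low RFI line (2.68% of all tested probes) or within the high RFI line (1.58%).

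Core and cap subunits were mostly correlated with each other from pig to pig. Residuals from the 4 group means were correlated over the 48 pigs, which share the array normalization. The median r over the 861 pairs of the 42 proteasome genes was 0.32, and 0.41 over the 406 pairs of 29 constitutive core and cap subunits, compared with 0.01 over all 9401 named genes (quartiles -0.14 and 0.16). Pairs of beta subunits had a median r of 0.59, all 21 being above 0, pairs of ATPases 0.49, pairs of non-ATPase subunits 0.43 and pairs of alpha subunits 0.23. The closest pairs were PSMC2 with the deubiquitinase PSMD14 (0.92), both of the cap, PSME1 with PSME2 (0.86), both of the activator, and PSMA5 with PSMA6 (0.84), both of the core. Between core and cap, PSMA6 with PSMD4 (0.83), a ubiquitin receptor, and PSMA5 with PSMD14 (0.82) were the closest. The median r over proteasome genes was 0.19 among the arrays of the first scan day and 0.45 among those of the second. The days hold different pigs, and this difference was not tested. With slide means removed, the median r over all pigs was 0.36.

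The groups overlapped in the shared level of these subunits. The mean of the 29 constitutive subunits, each centred on its mean over pigs, ranged from -0.27 to 0.09 in HF low RFI, -0.24 to 0.21 in HF high RFI, -0.13 to 0.25 in LF low RFI and -0.26 to 0.27 in LF high RFI pigs. The residual SD between pigs had a median of 0.206 over the 43 names and 0.255 over all named genes, and was highest for PSME2 (0.35), PSMA2 (0.34) and PSMB10 (0.34).

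PSMB10 had a median r of 0.10 with the other proteasome genes. It was closest to PSME2 (0.81) and PSME1 (0.66), and among the core and cap subunits to PSMA6 (0.59), PSMD4 (0.51) and PSMB4 (0.49). Of the interferon-gamma response genes outside the named set, 8 of 12 correlated with PSMB10 at r between 0.43 and 0.82, among them PSMB9 (0.82), PSMB8 (0.64), TAP1 (0.78), which carries peptides to MHC class I molecules, and B2M (0.67), the light chain of those molecules. The other 4 lay between -0.13 and 0.07 (NLRC5, TAP2, IRF9 and TAPBP). For NLRC5, the paper lists a lower level in low RFI liver by array and qPCR, whereas the probe used here gave a line effect of -0.01. PSMB11, a subunit known from the thymus, PSMG4 and PSMD3 had medians near 0 or below, at -0.14, -0.03 and -0.02.

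**Figure D5:**
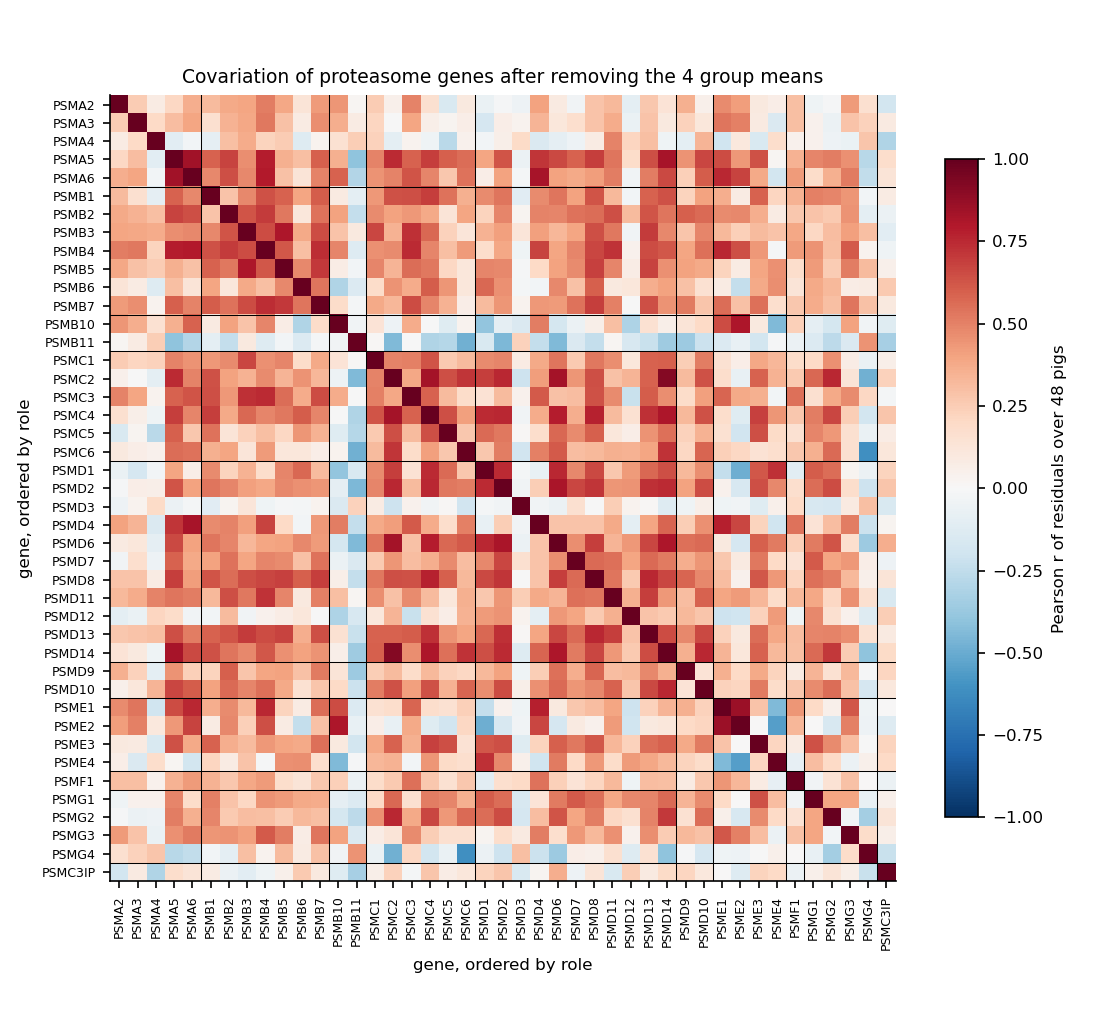
Pearson r between the 43 tested names over 48 pigs after the 4 group means were removed (colour scale from -1 to 1), with genes ordered by role and lines between roles. The core and cap subunits are mostly positive with each other, and PSMB10 is closest to PSME2 and PSME1 (0.81 and 0.66).

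The list of interferon-gamma response genes, which includes PSMB10, PSME1 and PSME2, had 15 tested genes. Of these, PSMB10 and the transcription factor IRF1 (-0.34, limma P = 0.00388, adjusted P = 0.0779) were called lower in low RFI pigs, 2 of 15 against 3.49% of all tested probes. The effect was below 0 in 13 of 15, compared with 21509 of the 45236 tested probes, with a median of -0.14 against 0.005. The inducible subunits PSMB8 and PSMB9 gave -0.64 ± 0.24 (SE, P = 0.0118, adjusted P = 0.155) and -0.50 ± 0.19 (P = 0.0139, adjusted P = 0.171) and were not called. For diet none of the 15 was called, against 4.61% of all tested probes, and 12 were above 0 with a median of 0.17. The summed level of the list ranged from 9.33 to 10.50 in HF low, 9.62 to 10.49 in HF high, 9.12 to 10.53 in LF low and 9.52 to 10.52 in LF high RFI pigs.

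In the wider ubiquitin-proteasome pathway, which covers ubiquitin genes, shuttle factors and regulators of proteasome expression, 28 of 35 listed genes were tested. None was called for line, against 6.91% of all tested probes. For diet 3 of 28 were called, against 4.61% of all tested probes, and none had an adjusted P under 0.05 in limma. NFE2L2, a transcription factor of the antioxidant response that also acts on proteasome genes, rose on HF (0.25, P = 6.77e-04, adjusted P = 0.0766), as did the shuttle factor UBQLN1 (0.15, P = 0.00199, adjusted P = 0.113). Its relative UBQLN4 fell (-0.20, P = 2.75e-04, adjusted P = 0.0530). NFE2L1, known to raise proteasome genes when the proteasome is inhibited, gave 0.12 (P = 0.0883) for diet and -0.03 (P = 0.647) for line. No line-by-diet interaction was called in this list, against 0.376% of all tested probes.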

How the data were processed

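Liver RNA of 48 pigs was labelled with Cy3 and hybridised to single-colour 60K porcine arrays, scanned and read with Agilent Feature Extraction 10.7.3.1. The deposited scanner files hold spot intensity with the background subtracted, and the authors also deposited a table of filtered, median-centred log2 values made in R 2.10.0, used here as an alternative. The processed intensity was log2-transformed, outlier spots were left out (missing in the fit), and each array was centred on its median over the 45236 tested probes, those detected well above background on 12 or more arrays. Line, diet and interaction were fitted with limma 3.58.1 (R 4.3.3) on all 48 arrays. On simulated data, 94.5% of changes of 0.5 on the log2 scale were called for line and 0.88% of unchanged probes.

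The 6 slides held 2 arrays of each group and the 2 scan days 6, and both were tried as blocks. The members and gene lists were chosen with earlier results of these data known. Genes described in full were those with a called probe, PSMA3 and PSMD1, which the paper names, and the brightest gene of each role. The number of arrays limits precision. All 44 names are in the reference tables, and 32 of 32 RefSeq accessions found there carry the same symbol. The build of the array design is not given in the sources used here, so no coordinates are printed.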

Additional observations from a re-analysis of the deposited data

How the results depend on the processing

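Settings tried were other normalizations, background corrections, filters and probe rules, the deposited values, unmoderated variances, and slide or scan day as a block or each scan day alone. Diet and interaction called none of the names under any of them. For line, the main setting called 3 names. PSMB2 lost its call under 7 of the alternatives, among them settings with all arrays. In each scan day alone, 1 name was called (PSMB10 on day 1, PSMC3IP on day 2, with 24 arrays each). When any probe of a gene counted, 5 names were called, against 9.4% of named genes under the same rule. At an adjusted P under 0.05, the 2 names became 1 (PSMC3IP) with quantile normalization, normexp or the median signal. The same held with the deposited values or no filter on dim probes. The count was 1 (PSMB10) without PSMC3IP and 0 in each scan day. With any probe it was 4, against 5.51% of named genes. Calls within a diet or a line went from 2 to 1 with quantile normalization. The line effect ranged from -0.39 to -0.25 for PSMB10, 0.22 to 0.29 for PSMC3IP, -0.19 to -0.06 for PSMB2, 0.77 to 1.04 for the PSMD1 probe at base 3184 and -0.35 to -0.22 for the PSMA4 probe at base 1192. The median r between proteasome genes was 0.19 on scan day 1 and 0.45 on day 2. The alternatives on probes of PSMD1, PSMA4 and PSMB10 and on covariation were chosen after seeing the data.

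Only effects that were not called changed sign, and their cause was not tested. For line these were PSMA3 (0.01 with the median signal and on scan day 1), PSMB4 (0.01 on day 2), PSMG4 (-0.01 on day 2) and PSMD9 (0.00 with normexp and the median signal, 0.01 with the deposited values). With all probes of a gene averaged, PSMA4 (-0.05) and PSMD1 (0.19, P = 0.0144 in a linear model with unmoderated variances) also changed sign. For diet they were PSMA3 (0.00 with normexp), PSMB2 (0.06 with normexp and on day 1, 0.04 with the median signal and the deposited values), PSMD9 (0.05 with normexp and on day 1, 0.02 with the median signal and the deposited values, 0.03 with all probes averaged) and PSMF1 (0.03 on day 2). PSMD13 was called lower in low RFI pigs when its probes were averaged (-0.23, P = 0.0093 in the same unmoderated model). That average includes its dim second probe, at -0.4. No paired analysis was made, because each pig belonged to a single line and a single diet and the labels name no pairs between groups. Probes near background, such as those of PSMA3 and PSMF1, limit what can be read of those genes.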
